A study of Mus musculus with 4 samples.

Results

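*Stra8* and *Gm4969*, the mouse gene that encodes MEIOSIN, were followed through spermatogenesis in single-cell RNA-seq of testes from mice at postnatal day 15. These 2 genes were chosen by symbol among the 32285 genes counted. Of the 4 libraries, 2 were wild-type (WT) and 2 *Meioc*-null, from C57BL/6N pups (1 testis each), and each of 2 batches held 1 littermate of either genotype. The null allele was Meioc tm1.1Dpc, and mice of both genotypes were also heterozygous for Hspa2tm1Dix and homozygous for a ROSA26 tdTomato reporter whose stop cassette was intact. The interstitium was discarded before the tubules were fully dissociated, and no cells were sorted, so each library holds germ cells of all stages recovered beside somatic cells.

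STRA8 is a nuclear protein that retinoic acid induces in the germ cells of the testis, first in spermatogonia that begin to differentiate and again in preleptotene spermatocytes. MEIOSIN carries basic helix-loop-helix and HMG-box domains and is known as the partner with which STRA8 activates meiotic genes at meiotic initiation. MEIOC belongs to a complex that controls germline transcripts, and germ cells without it are known to fail in early meiosis.

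Both genes lie on GRCm38. *Stra8* (ENSMUSG00000029848) spans chr6:34920163-34939344 on the plus strand, with 10 exons in its longest GENCODE vM21 isoform. *Gm4969* (ENSMUSG00000085601) spans chr7:19099046-19118368 on the minus strand, with up to 14 exons, and RefSeq lists it under the symbol *Bhmg1*. Windows of 300 bases at each RefSeq start (GRCm38.p6, 250 before it) were searched on both strands for AGGTCA, the half-site of retinoid receptors, for GCGGGAA, the E2F core, and for CACGTG, an E-box. The matches are shown so that the start regions of the 2 genes can be compared. Motif letters are in capitals, and each stretch is written 5′ to 3′ on the strand of its gene.
Stra8, AGGTCA at 194 bases before the start, chr6:34920742-34920771: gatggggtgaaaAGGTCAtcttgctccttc
Stra8, AGGTCA at 38 bases before the start, chr6:34920898-34920927: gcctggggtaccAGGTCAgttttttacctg
Gm4969, CACGTG at 171 bases before the start, chr7:19118498-19118527: cgggagcgggagCACGTGtcggagctgtgg
Gm4969, GCGGGAA at 70 bases before the start, chr7:19118397-19118426: tggcaccgcgtgGCGGGAAcgtggaggggg
The *Stra8* window held AGGTCA alone of these motifs, and both stretches lie in an exon that a longer GENCODE isoform marks as untranslated. The *Gm4969* window held CACGTG and GCGGGAA and no AGGTCA. Of all 32851 RefSeq windows of this length, 16.3% held AGGTCA, 7.15% held CACGTG and 4.60% held GCGGGAA, and a match is a description of letters only.

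After the filters 5644 and 7505 cells remained in WT replicates 1 and 2, and 6554 and 6522 in *Meioc*-null replicates 1 and 2, with library medians between 11698.5 and 14446 UMIs. WT germ cells formed 10 clusters on 1 line, made without *Stra8*, *Gm4969* and the other listed genes. Every cell took the cluster of its nearest WT cells, with no limit on how near these were. The study describes a cluster made up of *Meioc*-null spermatocytes, and cells of that kind were placed here too. Cluster 7 held 31.1 and 23.5% of *Meioc*-null germ cells against 16.8 and 12.3% of WT germ cells. How far differences between genotypes within a cluster are differences of stage was not tested. By marker genes cluster 1 was undifferentiated spermatogonia-like (6 of 7 markers), clusters 2 to 6 were differentiating spermatogonia-like (6 or 7 of 7), cluster 7 was preleptotene-like (7 of 7), cluster 9 early spermatocyte-like (7 of 8) and cluster 10 pachytene-like (5 of 8). Cluster 8, led by *Pbx3*, *Fbxo47*, *Terb1* and *Msh5*, scored too close for both spermatocyte classes and stayed unnamed. Names went by the relative level of each class's markers, and the counts are markers detected, which alone do not separate the classes. Cluster 10 also had 7 of 8 early spermatocyte markers detected, and cluster 5 had 7 of 7 preleptotene markers. Cluster 6 was named by a narrow margin, with scores of 0.531 for its class and 0.388 for preleptotene. Cluster 10 held cells of the WT libraries only. At most 16 barcodes were shared by any 2 libraries. *Meioc* itself stood at 635 and 683 CPM (UMIs of a gene per 1000000 UMIs of the summed cells) in WT and 677 and 648 CPM in *Meioc*-null cells of cluster 7. These 3′ counts can lie outside the deleted part, so they do not check the labels.

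Across whole libraries, a *Stra8* UMI was found in 3223 and 3944 WT and 5145 and 4681 *Meioc*-null cells. A *Gm4969* UMI was found in 1078 and 1419 WT and 1627 and 1660 *Meioc*-null cells. *Gm4969* was therefore counted from few molecules, 1641 to 2941 UMIs per library against 36704 to 85586 for *Stra8*. Somatic cells gave the background. In peritubular myoid-like cells, which should lack both genes, *Stra8* stood at 13.5 and 9.89 CPM in WT and 32.6 and 15.2 CPM in *Meioc*-null, and *Gm4969* stood between 0.337 and 0.558 CPM. In Sertoli-like cells *Stra8* stood at 19.4 and 20.5 CPM in WT and at 90.7 and 54.2 CPM in *Meioc*-null. In Leydig-like cells, from 5 to 11 UMIs per library, it stood at 11.5 ± 6.35 CPM in WT and at 9.72 ± 4.55 CPM in *Meioc*-null (SD, n = 2), lower in *Meioc*-null in both batches. Counting intervals in Leydig-like cells overlapped, so no order of the genotypes is read from them. They were 7.67 to 29.4 CPM in WT and 4.20 to 30.2 CPM in *Meioc*-null for replicate 1. For replicate 2 they were 2.82 to 14.5 and 3.24 to 11.6 CPM. The *Meioc*-null libraries thus had more *Stra8* in myoid-like and Sertoli-like cells, most of all replicate 1. The part of free RNA in the differences between genotypes was not tested.

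The first wave of *Stra8* was highest in cluster 2, of differentiating spermatogonia-like cells. In WT *Stra8* stood at 227 and 195 CPM in cluster 1, at 717 and 671 CPM in cluster 2, at 75.3 and 79.6 CPM in cluster 3 and at 47.5 and 41.7 CPM in cluster 4. Cluster 2 thus reached 33.2% ± 0.325 of the same library's later peak, and cluster 4 stood at 2.13% ± 0.118 of it (SD, n = 2). The same order was seen in *Meioc*-null libraries, with 916 and 853 CPM in cluster 2 and 93.0 and 65.2 CPM in cluster 4. In every library cluster 4 was the lowest point between the waves.

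*Gm4969* had no such first wave. It stood at 2.28 and 2.76 CPM in cluster 1 and at 2.89 and 2.54 CPM in cluster 2 of WT, which is 2.86% ± 0.488 of its own peak (SD, n = 2). These levels were above those of myoid-like cells in each library. Values in *Meioc*-null cells of cluster 2 were 4.26 and 4.06 CPM, against 4.08 and 2.88 CPM in Sertoli-like cells of the same libraries. The number of *Stra8* UMIs per *Gm4969* UMI was 248 and 264 in cluster 2 of WT, against 23.8 and 20.1 in cluster 7. *Gm4969* was thus far scarcer beside *Stra8* in the first wave than in the second.

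Genes were then ranked by the ratio of cluster 2 to the higher of its neighbours in WT. *Stra8* ranked 1 of 1290 genes, with a log2 ratio of 1.71. High ratios were also found for *Lhx8*, a LIM-homeobox factor (1.61, 32.2 CPM in cluster 2), and *Dppa3* (1.44, 24.2 CPM). *Fabp3*, a fatty acid-binding protein, *Pmepa1*, *Dpysl3*, *Elf4*, an ETS factor, *1700120C14Rik* and *Xaf1* had ratios from 1.28 to 1.09. These 8 companions stood between 0.0559 and 6.22 CPM in cluster 7 while *Stra8* stood at 2090 CPM. The rule chose these genes, so their values here are a description.

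The second wave reached its highest level in preleptotene-like cluster 7. *Stra8* stood at 92.9 and 80.0 CPM in cluster 5 of WT, at 414 and 390 CPM in cluster 6 and at 2144 and 2035 CPM in cluster 7. *Gm4969* stood at 14.5 and 14.5 CPM in cluster 5, at 20.0 and 22.3 CPM in cluster 6 and at 90.3 and 101 CPM in cluster 7. Here both genes were high together. At cluster 5 *Stra8* had reached 4.13% ± 0.284 of its peak and *Gm4969* 15.2% ± 1.19 of its own. At cluster 6 the parts were similar, 19.2% ± 0.0889 for *Stra8* and 22.1% ± 0.0451 for *Gm4969* (SD, n = 2).

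**Figure D1:**
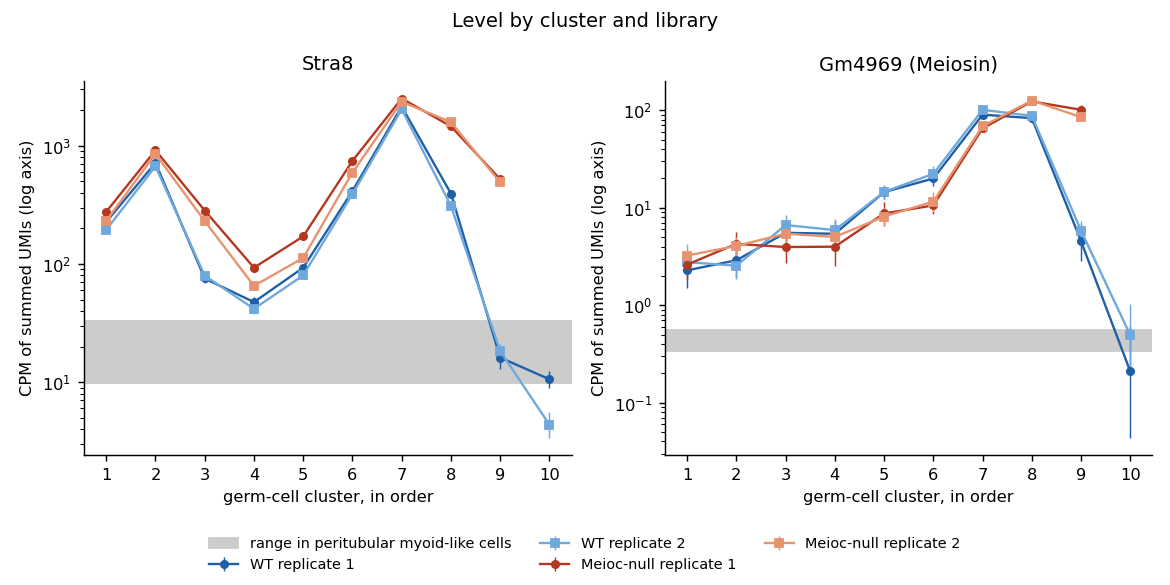
CPM of summed UMIs of *Stra8* and *Gm4969* (log axes) in germ-cell clusters 1 to 10, 1 line per library, with bars for exact Poisson 95% intervals that cover counting error only. The grey band is the range over the 4 libraries in peritubular myoid-like cells. *Stra8* had 2 peaks, in clusters 2 and 7, *Gm4969* 1 broad peak, and the lines of the genotypes part most in cluster 9.

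The 2 genes left their peak at different points in WT. In cluster 8 *Stra8* stood at 394 and 310 CPM, 16.8% ± 2.20 of its peak, while *Gm4969* stood at 83.1 and 87.8 CPM, 89.4% ± 3.73 of its peak (SD, n = 2). In cluster 9 *Stra8* was at 16.2 and 18.4 CPM, 0.828% ± 0.105 of its peak, and *Gm4969* at 4.53 and 5.81 CPM, 5.38% ± 0.509 of its peak. Both levels were above those of myoid-like cells in both WT libraries (13.5 and 9.89 CPM for *Stra8*, 0.337 and 0.527 CPM for *Gm4969*), for *Stra8* in replicate 1 with counting intervals that overlapped. Against Sertoli-like cells (19.4 and 20.5 CPM) *Stra8* in cluster 9 was lower in both WT libraries, so it was not above all somatic cells. The deeper Sertoli-like cluster (median 37245 UMIs in WT) had 5 of 5 germ-cell markers detected. The part of germ-cell RNA in the *Stra8* of Sertoli-like cells was not tested. In pachytene-like cluster 10 *Stra8* stood at 10.6 and 4.37 CPM and *Gm4969* at 0.209 and 0.494 CPM, both at or under the level in somatic cells.

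In *Meioc*-null cells both genes remained high past cluster 7. *Stra8* stood at 2509 and 2357 CPM in cluster 7, at 1460 and 1585 CPM in cluster 8 and at 521 and 490 CPM in cluster 9. Cluster 9 still held 20.8% ± 0.0181 of the peak (SD, n = 2). *Gm4969* stood at 65.3 and 68.7 CPM in cluster 7, at 123 and 126 CPM in cluster 8 and at 101 and 85.3 CPM in cluster 9. Its highest level was thus in cluster 8 in both *Meioc*-null libraries and in cluster 7 in both WT libraries, and cluster 9 held 74.8% ± 10.0 of it. Without doublet removal, a setting in which the cells were also clustered anew, the highest WT level was also in cluster 8. *Meioc*-null cells held 38.4 and 34.3 *Stra8* UMIs per *Gm4969* UMI in cluster 7 and 5.15 and 5.74 in cluster 9, so the ratio was lower late, as in WT (3.57 and 3.16).

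A finer order was also read. Germ cells were placed on the line through the cluster centres and cut into 30 bins at quantiles of the WT positions (ties leave bins of unequal size), a view added after the data were seen. The first wave of *Stra8* was highest in bin 4 of every library, at 1099 and 973 CPM in WT and 1125 and 1076 CPM in *Meioc*-null. The second was highest in bin 19 of every library, at 2652 and 2669 CPM in WT and 3104 and 3105 CPM in *Meioc*-null. *Gm4969* first passed the midpoint of its own maximum in bin 18 of both WT libraries and in bin 20 of both *Meioc*-null libraries, whereas *Stra8* did so in bin 18 or 17. The maximum of *Gm4969* lay in bins 20 and 22 in WT (109 and 135 CPM) and in bins 23 and 22 in *Meioc*-null (151 and 146 CPM), so replicate 2 of both genotypes shared a bin. After its maximum *Stra8* was below the midpoint from bin 22 and 21 in WT and from bin 22 and 23 in *Meioc*-null. For *Gm4969* this was bin 25 and 24 in WT and no bin in *Meioc*-null. The last bin with at least 10 *Meioc*-null cells per library was 26, where *Stra8* was at 330 and 322 CPM against 16.5 and 19.7 CPM in WT. *Gm4969* in that bin was at 90.7 and 75.3 CPM against 4.72 and 10.4 CPM.

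**Figure D2:**
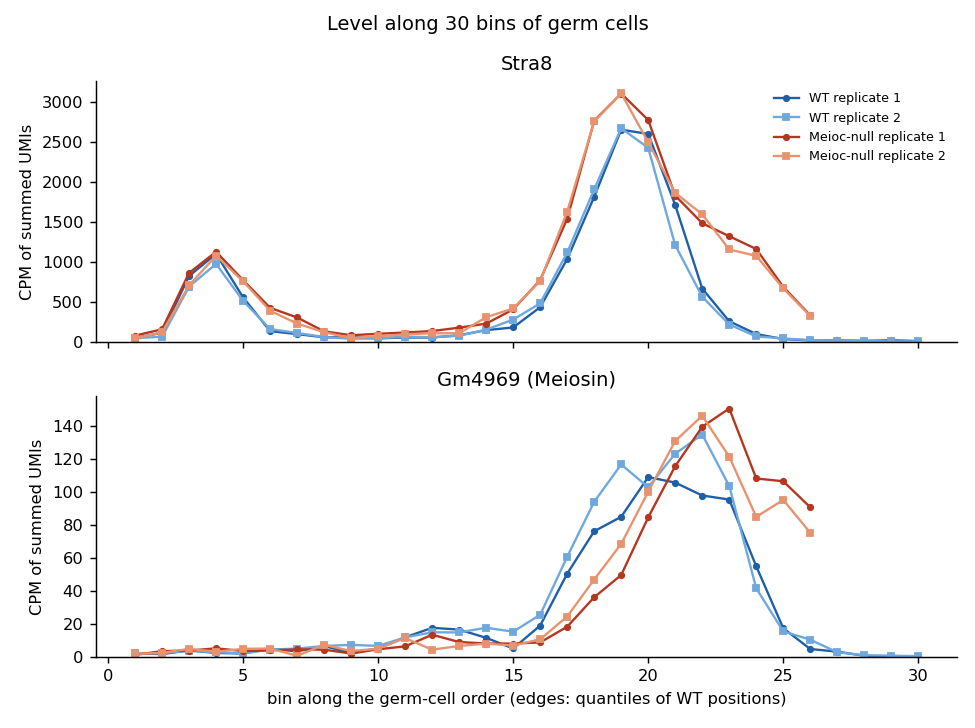
CPM of summed UMIs (vertical axes, from 0) of *Stra8* and *Gm4969* in 30 bins along the germ-cell order, 1 line per library. Bins with under 10 cells of a library are left out. *Stra8* had its maxima in bins 4 and 19 in every library. *Gm4969* passed its midpoint in bin 18 in WT and in bin 20 in *Meioc*-null, and stayed high to bin 26 in *Meioc*-null cells.

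The comparison of genotypes within clusters asked where loss of *Meioc* changed either gene. Summed counts were tested with edgeR in the 9 clusters with at least 50 cells in every library, with log2 fold changes given as WT over *Meioc*-null. Called means a Benjamini-Hochberg adjusted p under 0.05 over all genes tested and an absolute log2 fold change over 0.1. *Stra8* was called in 4 of 9 clusters (3, 6, 8 and 9), higher in *Meioc*-null in each. *Gm4969* was called in 4 of 9 (6, 7, 8 and 9), higher in WT in clusters 6 and 7 and higher in *Meioc*-null in clusters 8 and 9. Over all genes tested, called genes made up 0.0237%, 0.0117% and 0.0256% in clusters 1, 2 and 3, 0% in clusters 4 and 5, 1.29% in cluster 6, and 26.8%, 46.5% and 65.2% in clusters 7, 8 and 9. A call in clusters 7 to 9 was therefore common, and in clusters 3 and 6 it was rare in this fit. With the replicate block the number of called genes was 96 in cluster 3 (2 without it), 64 and 221 in clusters 4 and 5 (0 without it) and 519 in cluster 6 (77 without it). In clusters 4 and 5, where edgeR without the block called 0 genes, DESeq2 called 1 and 5, and edgeR's unadjusted p was under 0.05 for 144 and 381.

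After the first wave *Stra8* was higher in *Meioc*-null cells. In cluster 3 *Stra8* was at 283 and 230 CPM in *Meioc*-null against 75.3 and 79.6 CPM in WT. The log2 fold change was -1.70 (SE 0.12, edgeR adjusted p = 1.46e-05, higher in *Meioc*-null in both batches), and *Stra8* was 1 of 2 genes called there (96 with the replicate block). *Stra8* in Sertoli-like cells was also higher in *Meioc*-null (90.7 against 19.4 CPM and 54.2 against 20.5 CPM), and the part of free RNA in the difference was not tested. In cluster 2 the difference was -0.33 (SE 0.15, edgeR adjusted p = 1.00), which passed with the replicate block of littermate pairs (adjusted p = 0.00536). The change from cluster 2 to 3, tested as an interaction added after the data were seen, differed between genotypes by -1.35 on the log2 scale for *Stra8* (SE 0.07, edgeR adjusted p = 5.34e-11) in a fit that called 0.184% of genes. Without the library term it was not called (-1.36, edgeR adjusted p = 0.157), and without doublet removal it was -0.78. *Gm4969* was not called in this interaction (1.02, SE 0.36, edgeR adjusted p = 0.410).

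Of these companions 2 could be tested in cluster 3, and neither was called. *Dpysl3*, at 14.5 and 11.8 CPM in *Meioc*-null against 10.5 and 8.77 CPM in WT, differed by a log2 fold change of -0.43 (SE 0.20, edgeR adjusted p = 0.999), and *Pmepa1* by 0.01 (SE 0.18, edgeR adjusted p = 0.999). The other 6 fell under the detection filter in cluster 3. None of the 7 tested in cluster 2 was called. Over all genes tested, 0.0117% were called in cluster 2 and 0.0256% in cluster 3. The lack of calls among so few companions therefore does not set *Stra8* apart from them.

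Between the waves *Stra8* stood higher in *Meioc*-null cells. Its values were 93.0 and 65.2 CPM against 47.5 and 41.7 CPM in cluster 4 and 171 and 112 CPM against 92.9 and 80.0 CPM in cluster 5. The log2 fold changes were -0.79 (SE 0.14) and -0.67 (SE 0.16), with edgeR adjusted p of 0.999 and 0.586. With the replicate block they were called (adjusted p = 3.47e-14 and 0.000312). The excess of *Meioc*-null over WT in cluster 4 was smaller than in Sertoli-like cells (90.7 and 54.2 CPM against 19.4 and 20.5 CPM) and larger than in myoid-like cells (32.6 and 15.2 CPM against 13.5 and 9.89 CPM). The part of free RNA in these clusters was not tested.

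Before the peak the 2 genes moved in opposite directions without *Meioc*. In cluster 6 *Stra8* was at 744 and 593 CPM in *Meioc*-null against 414 and 390 CPM in WT, which is -0.71 on the log2 scale (SE 0.16, edgeR adjusted p = 0.0332). *Gm4969* was at 10.6 and 11.6 CPM against 20.0 and 22.3 CPM, which is 0.96 on the log2 scale (SE 0.21, edgeR adjusted p = 0.0361). Both batches showed each direction. In cluster 5 *Gm4969* was already at 8.74 and 8.13 CPM against 14.5 and 14.5 CPM (0.81, SE 0.17, edgeR adjusted p = 0.530, and 0.00621 with the replicate block). The calls of cluster 6 were near the threshold. Without WT replicate 1 or 2 neither gene was called there (edgeR adjusted p = 0.399 and 0.263 for *Stra8*, 0.0576 and 0.107 for *Gm4969*), and *Gm4969* was also not called without *Meioc*-null replicate 1 (edgeR adjusted p = 0.194). The log2 fold changes in these fits were -0.70 and -0.70 for *Stra8* and 1.09, 0.85 and 0.82 for *Gm4969*. *Stra8* also lost its call with DESeq2 size factors in edgeR (adjusted p = 0.0555) and with every gene of at least 10 UMIs tested (edgeR adjusted p = 0.0528).

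At the peak of *Stra8* only *Gm4969* differed past the threshold over cluster 7 taken whole. In cluster 7 *Gm4969* was 1.48-fold higher in WT (log2 fold change 0.57 with an SE of 0.12, edgeR adjusted p = 0.000987), with the same direction in both batches. *Stra8* differed by -0.17 (SE 0.21, edgeR adjusted p = 0.604), and the *Meioc*-null values of 2509 and 2357 CPM were both above the WT values. Of all genes tested in cluster 7, 11% were called with WT higher and 15.8% with *Meioc*-null higher. The differences varied along the finer order. In bin 18 *Stra8* was at 2764 and 2754 CPM in *Meioc*-null against 1813 and 1906 CPM in WT. *Gm4969* in bin 18 was at 36.1 and 46.9 against 76.2 and 94.1 CPM. In bin 21 *Gm4969* was at 116 and 131 against 106 and 123 CPM. The part of cell position in the differences of cluster 7 was not tested.

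Past the peak both genes were higher without *Meioc*. In cluster 8 *Stra8* was 4.25-fold higher in *Meioc*-null (log2 fold change -2.09, SE 0.16, edgeR adjusted p = 2.79e-08). *Gm4969* was 1.42-fold higher (-0.51, SE 0.11, edgeR adjusted p = 0.00133), a call that was lost without doublet removal (-0.24, adjusted p = 0.113). Around cluster 8 the genotypes lay at different points of the finer order. Bin 21 held 811 and 574 *Meioc*-null cells against 158 and 185 WT cells. Bin 23 held 23 and 18 against 135 and 279. In bin 22 *Stra8* was at 1482 and 1594 CPM in *Meioc*-null against 664 and 562 CPM in WT. In bin 21 *Stra8* was at 1828 and 1861 against 1710 and 1207 CPM. *Gm4969* was at 140 and 146 against 97.9 and 135 CPM in bin 22. In bin 21 it was at 116 and 131 against 106 and 123 CPM. The genotypes were further apart in bin 24, which held 144 and 142 *Meioc*-null and 76 and 267 WT cells. There *Stra8* was at 1160 and 1074 CPM in *Meioc*-null against 96.1 and 66.4 CPM in WT. *Gm4969* in that bin was at 108 and 84.9 against 54.9 and 41.6 CPM. In early spermatocyte-like cluster 9 *Stra8* was 27.5-fold higher (-4.78, SE 0.13, edgeR adjusted p = 3.01e-17) and *Gm4969* 16.4-fold higher (-4.03, SE 0.16, edgeR adjusted p = 1.45e-14), in both batches. Without doublet removal, and with cells clustered anew, these were 13.7-fold (-3.78) and 4.26-fold (-2.09), both still called. The WT level of *Stra8* in cluster 9 was no higher than in Sertoli-like cells, so the size of its fold depends on that background. The genotypes also lay in different parts of cluster 9: in bin 27 of the finer order there were 3 and 2 *Meioc*-null cells against 135 and 299 WT cells. In bin 25, which both genotypes held, *Stra8* was at 686 and 666 CPM in *Meioc*-null against 32.9 and 41.1 CPM in WT, and *Gm4969* was at 107 and 95.2 CPM against 17.3 and 15.4 CPM. In cluster 9, 32.9% of genes tested were called higher in *Meioc*-null and 32.3% higher in WT. Few *Meioc*-null cells reached this cluster, 213 and 286 of 5067 and 4937 germ cells.

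**Figure D3:**
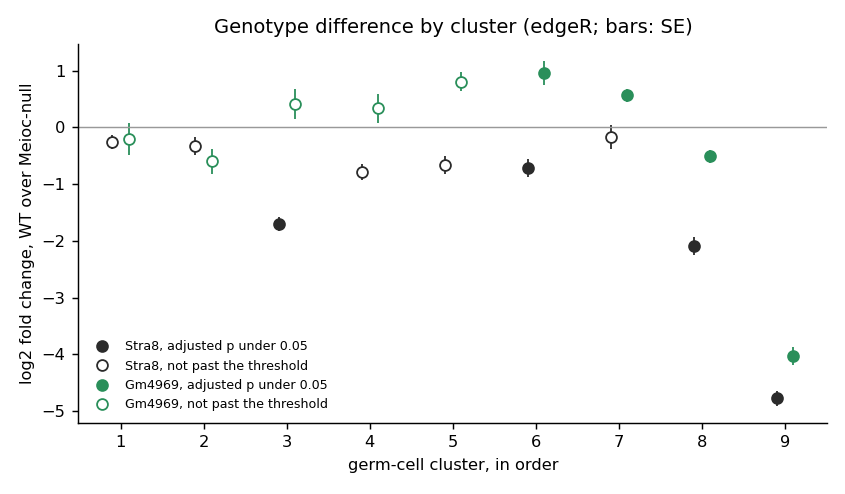
Log2 fold change of WT over *Meioc*-null (vertical axis, bars are SE) for *Stra8* and *Gm4969* in germ-cell clusters 1 to 9, from edgeR on counts summed per library (2 libraries per genotype). Filled points passed the threshold. *Gm4969* crosses from above 0 in clusters 6 and 7 to below 0 in clusters 8 and 9, and *Stra8* lies lowest in cluster 9.

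The shut-off was then tested as a change between stages. From cluster 7 to cluster 9 the change in WT minus the change in *Meioc*-null was -4.62 on the log2 scale for *Stra8* (SE 0.09, edgeR adjusted p = 2.43e-22) and -4.65 for *Gm4969* (SE 0.16, edgeR adjusted p = 3.13e-17), in a fit with 1 term per library. This is a 24.7-fold and a 25.2-fold difference between genotypes in the change of level. For *Stra8* it rests on the same low WT level, which was above that of myoid-like cells but not of Sertoli-like cells. For *Gm4969* it joins a lower level in WT (90.3 and 101 to 4.53 and 5.81 CPM) with a higher one in *Meioc*-null (65.3 and 68.7 to 101 and 85.3 CPM). The same fit called 62.8% of genes. From cluster 7 to cluster 8, a step added after the data were seen, the difference was -1.92 for *Stra8* (SE 0.10, edgeR adjusted p = 1.96e-10) and -1.08 for *Gm4969* (SE 0.11, edgeR adjusted p = 2.63e-07), where 37.7% of genes were called. Both genes thus differed over both spans, which overlap, and all 4 interactions were called under every alternative fitted for them. The step from cluster 8 to cluster 9 was not tested on its own. DESeq2's own test was not among these alternatives. The part of cell position within the clusters in these differences was not tested. Without doublet removal, and with cells clustered anew, the differences to cluster 9 were smaller, -3.59 for *Stra8* and -2.61 for *Gm4969*.

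Co-detection in single cells was read at 5000 UMIs per cell, since the share of cells with a UMI grows with depth. Exact binomial intervals below cover counting error only. In cluster 7 a *Stra8* UMI was found in 100% and 100% of WT cells (712 and 732 cells) and in 99.8% and 99.8% of *Meioc*-null cells. A *Gm4969* UMI was found in 37.5% (33.9 to 41.2%) and 38.3% (34.7 to 41.9%) of WT cells and in 27.0% (24.8 to 29.3%) and 27.5% (24.9 to 30.2%) of *Meioc*-null cells. In myoid-like cells at the same depth the share with a *Gm4969* UMI was between 0 and 0.566%, and that with a *Stra8* UMI between 2.64 and 14.1%, highest in *Meioc*-null replicate 1. Every cluster 7 cell of WT with *Gm4969* thus also held *Stra8*, so the share with both equalled the *Gm4969* share there.

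The share of cells with both genes was lower in *Meioc*-null in clusters 6 and 7 and higher in clusters 8 and 9. In cluster 6 it was 7.89 and 8.46% in WT and 4.14 and 4.96% in *Meioc*-null. In cluster 7 it was 37.5 and 38.3% in WT and 26.9 and 27.4% in *Meioc*-null. In cluster 8 the order turned, with 23.7% (19.5 to 28.3%) and 21.6% (18.8 to 24.5%) in WT and 45.7% (41.7 to 49.7%) and 43.5% (39.5 to 47.5%) in *Meioc*-null. In cluster 9 it was 0 of 349 and 1 of 901 WT cells (upper limits 1.05 and 0.617%) and 35.6% (29.1 to 42.6%) and 27.0% (21.9 to 32.5%) of *Meioc*-null cells. In these 4 clusters the ranges of the genotypes were apart, with a two-sided exact permutation p of 0.333, the smallest that 2 libraries against 2 can give. In clusters 1 to 5 no library had more than 2.63% of cells with both, and no order of the genotypes is read from shares this low.

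Median UMIs per cell in cluster 7 were 11111 and 10448 for the WT and 11296 and 12441 for the *Meioc*-null libraries. At full depth the share with both in cluster 7 was 63.2 and 62.5% in WT and 47.3 and 52.0% in *Meioc*-null, and in cluster 9 it was 1.12 and 1.74% against 71.4 and 72.4%. Of all cells with both genes, 48.0 and 40.0% lay in cluster 7 in WT and 46.4 and 37.5% in *Meioc*-null, and 17.9 and 30.7% against 27.8 and 29.8% lay in cluster 8. Cluster 9 held 0.424 and 1.38% of them in WT and 9.45 and 12.9% in *Meioc*-null. Of all cells with a *Gm4969* UMI, 87.6 and 81.6% also had *Stra8* in WT and 98.9 and 96.9% in *Meioc*-null.

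**Figure D4:**
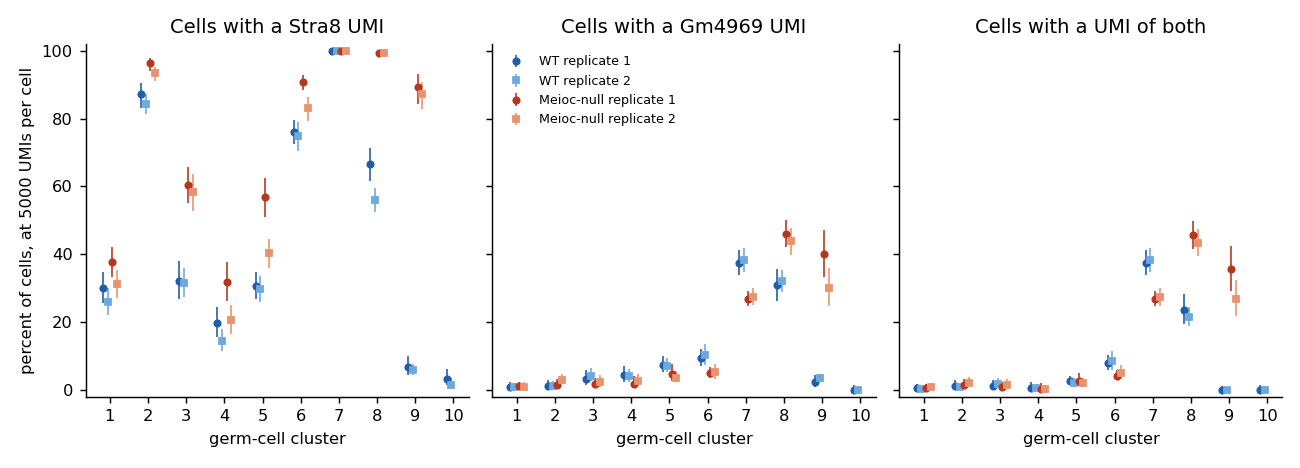
Percent of cells with a *Stra8* UMI, a *Gm4969* UMI and both (vertical axis, cells thinned to 5000 UMIs) in germ-cell clusters 1 to 10, 1 point per library with exact binomial 95% intervals. Shares with both were highest in clusters 7 and 8 in WT and in clusters 7 to 9 in *Meioc*-null, and WT lies above *Meioc*-null in cluster 7 and below it in clusters 8 and 9.

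Co-detection was set against the single shares. The observed share with both, divided by the product of the single shares, was 1.00 and 1.00 in cluster 7 of WT, where *Stra8* was in every cell and the ratio can take no other value. In cluster 6 it was 1.11 and 1.11 in WT and 0.923 and 1.16 in *Meioc*-null. In cluster 8 of WT it was 1.15 and 1.20, against 1.00 and 1.00 in *Meioc*-null, where *Stra8* was again in nearly every cell. Among WT cells of cluster 8 with no *Stra8* UMI, *Gm4969* was found in 21.4 and 23.7%, and among those with 1 to 2 *Stra8* UMIs in 34.8 and 35.2%. Where doublets were kept and cells clustered again, the WT mean in cluster 8 was 1.01. Both genes also fell along this part of the finer order in WT. *Stra8* went from 664 and 562 CPM in bin 22 to 96.1 and 66.4 CPM in bin 24. *Gm4969* went from 97.9 and 135 CPM to 54.9 and 41.6 CPM. The part of this shared fall in the ratio was not tested. In cluster 9 of *Meioc*-null the ratio was 1.00 and 1.03.

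*Stra8* was unevenly spread over undifferentiated spermatogonia-like cells of cluster 1. At 5000 UMIs per cell the median cell had 0 *Stra8* UMIs in every library, the 90th percentile was 4 and 2 in WT and 3 and 3 in *Meioc*-null, and the highest cells had 10 to 14. Between 25.9 and 37.7% of these cells had a *Stra8* UMI, which is above the share in myoid-like cells. The first wave began to rise among them. In WT *Stra8* went from 47.0 and 44.0 CPM in bin 1 to 823 and 690 CPM in bin 3. The median cell of both bins lay in cluster 1. In *Meioc*-null it went from 76.1 and 44.3 CPM to 861 and 706 CPM. In cluster 2 the median was 3 and 3 UMIs in WT and 4 and 4 in *Meioc*-null, and in cluster 7 it was 11 and 10 in WT and 12 and 11 in *Meioc*-null. In cluster 8 it was 1 and 1 in WT and 6 and 7 in *Meioc*-null.

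Cells were also grouped by spermatocyte genes instead of clusters. *Prdm9* encodes the methyltransferase that places recombination hotspots, *Dmc1* a meiotic recombinase, *Meiob* a single-stranded DNA-binding factor and *Psma8* a meiotic proteasome subunit. A germ cell was positive with 1 or more UMIs of the gene at full depth, so the groups are broad. In WT 2837 and 4174 of 4280 and 6013 germ cells were *Dmc1*-positive. In *Meioc*-null these were 3554 and 3478 of 5067 and 4937. *Meiob*-positive cells were fewer, 1337 and 2382 in WT and 1028 and 1144 in *Meioc*-null. With *Stra8* thinned to 5000 UMIs per cell, 39.4 and 32.9% of *Meiob*-positive WT cells held a *Stra8* UMI. In *Meioc*-null 95.7 and 93.6% did. The shares for *Prdm9* were 64.1 and 59.5% against 90.6 and 83.3%, for *Dmc1* 53.7 and 46.6% against 88.1 and 80.1%, and for *Psma8* 41.1 and 33.6% against 74.9 and 68.1%. In each of the 4 groups the genotypes were apart (exact permutation p = 0.333). *Gm4969* at full depth was also higher in *Meioc*-null in each group, by unequal amounts. It stood at 94.3 and 91.7 CPM in *Meiob*-positive *Meioc*-null cells against 18.4 and 26.1 CPM in WT, at 52.1 and 50.7 against 36.0 and 42.2 CPM for *Prdm9*, at 43.6 and 38.7 against 23.5 and 24.4 CPM for *Dmc1*, and at 19.4 and 17.8 against 9.47 and 7.89 CPM for *Psma8*. Positive cells are a mix of stages, and WT alone has cells in cluster 10.

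The genes most like each member over the 10 WT clusters were found by Pearson correlation of log2(CPM + 1), a description with no test over clusters that share libraries. For *Stra8* these were *Etfdh* (r = 0.97), *Trmt2a* (0.94), *Sgpl1*, the sphingosine-1-phosphate lyase (0.93), *Plaa* (0.93) and *Rhd* (0.91), of 8985 genes that reached 20 CPM. For *Gm4969* they were *Dennd4a* (0.98), *Greb1l* (0.98), *Avl9* (0.98), *Tsc22d2* (0.98) and *Ago3*, an Argonaute protein (0.98). The 2 members had an r of 0.67 with each other. *Gm4969* ranked 645 for *Stra8*, and *Stra8* ranked 1209 for *Gm4969*.

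The other genes of the pathway were read from 8 lists in clusters 7 and 9. Among retinoid receptors 2 of 6 could be tested in cluster 7, where *Rarg* was higher in *Meioc*-null (log2 fold change -0.48, 31.7 and 23.6 CPM against 20.2 and 18.2 CPM, edgeR adjusted p = 0.0328). The 1 tested in cluster 9, *Rxrb*, was also higher in *Meioc*-null (-0.36). Of 13 genes for retinoid synthesis, breakdown and binding, 3 could be tested in cluster 7. *Aldh1a2*, which makes retinoic acid, was higher in WT there (0.59), and *Crabp1*, which binds it, was higher in *Meioc*-null (-0.47). In cluster 9 *Aldh1a2* was the only one tested and was higher in *Meioc*-null (-0.38). Most members of these lists fell under the detection filter, and over all genes 26.8% were called in cluster 7 and 65.2% in cluster 9.

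Of the 13 upstream repressors tested in cluster 7, 1 was higher in *Meioc*-null and 0 higher in WT (15.8% and 11% over all genes), with a median log2 fold change of 0.02 against 0.00 over all genes. The one was *Mga*, a subunit of the PRC1.6 complex (-0.36). In cluster 9, 4 of 11 were higher in WT, among them *Pcgf6* (1.48), *Rnf2* (0.97) and *Tfdp1* (0.84), and 2 were higher in *Meioc*-null (median 0.09 against -0.01 over all genes). As 32.3% of all genes were higher in WT there, the count is near that of all genes. The study picked some of these repressors on the same samples, so the list is no independent evidence of a direction. Of the 5 SCF ubiquitin ligase genes, *Fbxw11*, an F-box protein, was higher in *Meioc*-null in both clusters (-1.21 and -1.20). The others were not called in cluster 7, and in cluster 9 3 were higher in WT, among them *Cul1* (0.49) and *Btrc* (0.59), where 32.3% of all genes were higher in WT and 32.9% in *Meioc*-null.

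Of 25 meiotic prophase genes tested in cluster 7, 10 were higher in WT and 0 in *Meioc*-null, with a median of 0.25, where 11% of all genes were called higher in WT. *Rad21l*, a meiotic cohesin, differed by 0.95, *Terb1*, which joins telomeres to the nuclear envelope, by 0.59, and *Hsf2bp*, a recombination factor, by 0.56. In cluster 9, 8 of 24 were higher in WT and 10 in *Meioc*-null (median 0.02), against 32.3% and 32.9% of all genes, so the share higher in WT was near that of all genes. *Spo11*, which makes meiotic double-strand breaks, was higher in WT there (1.80), and *Zcwpw1* (-1.63) and *Majin*, a telomere attachment factor (-2.37), were higher in *Meioc*-null.

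Cell cycle genes were also called in these clusters. Of 47 G2/M phase genes tested in cluster 7, 34 were higher in *Meioc*-null, where 15.8% of all genes were, and 0 in WT (median -0.65), led by *Cks2* (-2.14), *Cenpa* (-2.14) and *Ube2c* (-2.07). In cluster 9, where 32.9% of all genes were higher in *Meioc*-null and 32.3% in WT, 36 of 49 were higher in *Meioc*-null and 5 in WT (median -0.61), with *Cenpa* (-2.77), *Anp32e* (-2.73) and *Nusap1* (-1.88). Of 39 S phase genes in cluster 7, 6 were higher in WT, among them *Gins2* (0.41), and 3 in *Meioc*-null, among them *Cdca7* (-0.96) and *Usp1* (-0.40), beside 11% and 15.8% of all genes. In cluster 9, 29 of 36 were higher in *Meioc*-null and 1 in WT (median -0.74, beside the same 32.9% and 32.3% of all genes), with *Usp1* (-2.39), *Mcm6* (-1.90) and *Ccne2* (-1.56). Of the G1/S cyclins and partners, 1 of 6 in cluster 7, *Ccna2* (-1.18), and 4 of 5 in cluster 9, among them *Ccna2* (-1.81) and *Cdk4* (-0.75), were higher in *Meioc*-null, beside 15.8% and 32.9% of all genes. In cluster 9 most S and G2/M phase genes were thus higher in *Meioc*-null beside *Stra8* and *Gm4969*, and the part of this in the shut-off was not tested.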

How the data were processed

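Single-cell libraries (10x Genomics 3′) of P15 testes were analysed from the deposited UMI counts, which per the labels the authors made with Cell Ranger 4.0.0 against mm10 (GRCm38), without normalization. The study's methods also name Seurat, >1000 genes per cell and <10% mitochondrial UMIs. These 2 filters were kept here. Doublets were scored with Scrublet, not with the caller the study used, and the top-scoring barcodes (690 to 996 of 6334 to 8494 per library, a share that grows with its barcodes) were removed. Scrublet's own threshold marked fewer, 1.94 to 4.58%.

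Wild-type cells were clustered (2000 variable genes without listed genes, 30 principal components, Leiden, lowest resolution giving at least 10 germ-cell clusters), and each cell took the majority cluster of its 30 nearest wild-type cells. Marker lists were fixed, but the score ratio (0.75) and a rule on shallow clusters were set after the clusters were seen. Members and gene lists were chosen with earlier results of these data known.

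UMIs were summed per library and cluster and tested with edgeR 4.0.16 (TMM, robust quasi-likelihood test) in R 4.3.3, where every library had 50 cells. Genes needed a UMI in 25% of cells of either genotype, and the 2 members needed 10 UMIs. DESeq2 1.42.0 was an alternative. Scripts were tested on simulated data. Replicate numbers mark littermate pairs in the labels, and same-numbered libraries deviated together from their group means (r = 0.38 to 0.65 over clusters), so the replicate block is given where it changes a call. Shares were thinned to 5000 UMIs per cell. CPM intervals and shares use 95% exact limits. Named genes are the members, the 5 genes most correlated with each, the 10 with the highest ratio in cluster 2 (1 is not reported here), up to 3 called genes per list with the lowest p, and *Prdm9*, *Psma8*, *Dmc1* and *Meiob*.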

Additional observations from a re-analysis of the deposited data

Results flagged for a closer look

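The genotype effect on both members differed between stages, by an edgeR interaction test with 1 term per library. On the log2 scale the effect in cluster 9 minus that in cluster 7 was -4.62 for *Stra8* and -4.65 for *Gm4969*, and the effect in cluster 8 minus that in cluster 7 was -1.92 for *Stra8* and -1.08 for *Gm4969*. For *Stra8* the effect in cluster 3 minus that in cluster 2 was -1.35. Each compares clusters of the same 4 libraries. Groups of 2 libraries are too small for a check on single outlying libraries.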

How the results depend on the processing

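Each result was computed again with 1 choice changed. Among values with a test, direction held in all but 1: *Gm4969* in cluster 1, not called, was -0.21 on the log2 scale and ranged from -0.41 to 0.030 without 1 library (0.030 without *Meioc*-null replicate 2). With the replicate block *Stra8* was called in clusters 2 (-0.33), 4 (-0.78) and 5 (-0.66), and *Gm4969* in cluster 5 (0.82), and the block changed no other call of the members within a cluster. *Stra8* in cluster 4 was also called with every gene of at least 10 UMIs tested (-0.78). In cluster 6 *Stra8* lost its call with DESeq2 size factors (-0.70) and with every gene of at least 10 UMIs (-0.69), and the cause was not tested. The cluster 2 to 3 interaction of *Stra8* lost its call without the library term (-1.36).

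Without 1 library, log2 values of *Stra8* ranged from -0.98 to -0.59 in cluster 4 (called without either WT replicate and without *Meioc*-null replicate 2), from -0.91 to -0.40 in cluster 5 (called without *Meioc*-null replicate 2) and from -0.80 to -0.60 in cluster 6, and those of *Gm4969* in cluster 6 from 0.82 to 1.09. Such fits leave 1 genotype with 1 library, assumed to vary like the others. Counts of called genes were 77 in cluster 6 (519 with the replicate block, 44 by DESeq2, 138 with every gene of at least 10 UMIs, 68 to 262 without 1 library), 1615 in cluster 7 (2678 with the block, 948 to 1355 without 1 library) and 4337 in cluster 9 (6942 with every gene of at least 10 UMIs). With the block, clusters 1 to 5 had 29, 32, 96, 64 and 221 called genes against 2, 1, 2, 0 and 0.

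Without doublet removal the cells were also clustered anew, so the part of doublets in the changes was not tested. Clusters 8 and 9 were matched by 59.6 and 62.4% of their WT cells only, to clusters 9 and 8 of the new order. Clusters 3 and 4 shared a match, where *Stra8* was called (-1.18). *Stra8* was called in cluster 5 (-0.97), and *Gm4969* lost its call in cluster 8 (-0.24). Levels of *Stra8*, in percent of the peak, were then 28.9, 24.8 and 2.61% in WT clusters 2, 8 and 9 and 32.9, 72.0 and 30.9% in *Meioc*-null, and those of *Gm4969* were 100% and 19.4% in WT clusters 8 and 9. With the listed genes allowed in the clustering, *Stra8* stood at 33.6% in WT cluster 2 and at 36.9 and 21.1% in *Meioc*-null clusters 2 and 9, and *Gm4969* at 4.63% in WT cluster 9. The ratio of observed to product share was 1.04 in WT cluster 6 without thinning and 1.04 without doublet removal, 1.10 and 1.01 in WT cluster 8, and 1.00 and 1.00 in *Meioc*-null cluster 8. Under 5% mitochondrial UMIs, with the clusters kept, clusters 4 and 5 alone held 50 cells per library, and neither member was called there. With 2 libraries per genotype and few *Gm4969* UMIs in clusters 1 to 4, small differences of *Gm4969* were not detectable there.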

Other observations

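Cells outside the germ-cell clusters that were given no name were not used in a comparison. These cells, a pool of 3 clusters, 1 of them shallow (median 3073 UMIs in WT) with 5 of 5 germ-cell markers detected, and with library medians of 5926.5 to 7750 UMIs, had *Stra8* at 71.7 and 170 CPM (WT) and at 162 and 153 CPM (*Meioc*-null). Their *Gm4969* stood at 1.59 and 1.35 CPM (WT) and at 1.33 and 0.998 CPM (*Meioc*-null).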
